A study of Sus scrofa with 4 samples.

Results

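The transcripts described here encode the TET dioxygenases (TET1, TET2 and TET3) and 7 enzymes of base excision repair: TDG, SMUG1, MBD4, UNG, NEIL1, NEIL2 and APEX1. They were taken by gene name from a deposited table of 35248 genes and loci; 9 of the 10 were found in its name column, and the row of APEX1, which carries no name there, was found by its Ensembl identifier. The samples were porcine parthenogenetic 4-cell embryos, which develop from an oocyte without sperm, in 2 libraries given 50 µM Bobcat339, a cytosine-based inhibitor of the TET enzymes, and 2 control libraries given DMSO, whose dose the labels also write as 50 µM. All embryos came from oocytes activated by an electric pulse, were held for 3 h in 7.5 µg/mL cytochalasin B, which blocks extrusion of a polar body, and were then cultured for 48 h in PZM-3 medium with 0.4% albumin at 38.5 °C under 5% CO2. Total RNA was extracted with TRIzol and sequenced after Smart-seq2 library construction, which copies full-length mRNA and does not mark its strand. The pig strain, the number of embryos per library and whether the libraries came from separate cultures do not appear in the sources used here, so the tests measure only the spread between these libraries, which may be technical.

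TET enzymes use iron and 2-oxoglutarate to oxidise 5-methylcytosine in DNA to 5-hydroxymethylcytosine and then to 5-formylcytosine and 5-carboxylcytosine. TDG cuts out the last 2 of these bases and leaves a site without a base, which the endonuclease APEX1 opens so that a polymerase and a ligase can restore an unmodified cytosine. Cleavage embryos also lose methylation passively as DNA replicates, and in mouse the TET3 protein stored in the oocyte acts in the zygote. RNA libraries give the amount of transcript, not the activity of the enzymes that Bobcat339 is used to inhibit.

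The libraries held 14681221 and 13568525 counts for Bobcat339 and 14390560 and 13852262 counts for control. Scaled to these totals, 3 counts, about the 1-sided 95% limit for a count of 0, correspond to 0.204 to 0.221 CPM (counts scaled to library size). The Poisson intervals given here are 2-sided and reach 3.7 for a count of 0. That limit and these intervals cover counting error only. The 8 oocyte and cleavage-embryo markers found (of 10 listed, among them BMP15, WEE2 and KLF17) had summed levels of 10560 and 12050 CPM in Bobcat339 embryos and 10600 and 11650 CPM in control embryos. The 11 cumulus and granulosa cell markers found, of 12, summed to 84.7 and 86.2 CPM in Bobcat339 embryos and 75.0 and 94.7 CPM in control embryos, most of it from VCAN. STAR stood at 5.45 and 4.52 CPM with Bobcat339 and 9.03 and 4.80 CPM in control, and CD44 at 3.75 and 4.37 CPM with Bobcat339 and 4.73 and 3.58 CPM in control, while AMH had 0 counts in the 4 libraries and FSHR 1 count, in control 2. TNFAIP6 had 7 and 4 counts with Bobcat339 and 24 and 22 in control (log2 fold change −2.07), which did not pass (edgeR adjusted p = 0.999); its part in the results was not tested. Blood cell markers (5 found of 6) summed to 10.1 and 13.3 CPM with Bobcat339 and 12 and 9.52 CPM in control. The 5 markers of differentiated lineages summed to 50.0 and 53.2 CPM with Bobcat339 and 62.9 and 32.9 CPM in control. Most of that sum came from GATA6 alone (44.55 and 50.7 CPM with Bobcat339, 56.0 and 29.6 CPM in control). The libraries scored −3.85 and 17.96 (Bobcat339) and −44.36 and 30.26 (control) on the first principal component, which held 49.5% of the variance, so the controls were the 2 extremes.

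The glycosylases UNG, TDG and SMUG1 were the most abundant of the 10 transcripts as counted, and each TET transcript was lower than these 3. Per kilobase of transcript, in the deposited FPKM (fragments per kilobase, scaled to library size), UNG averaged 80.0 ± 4.71, TDG 51.1 ± 9.45 and SMUG1 16.4 ± 3.98 over the 4 libraries (SD, n = 4). NEIL1 followed at 6.34 ± 1.84 FPKM, then TET3 at 4.19 ± 0.954, MBD4 at 2.62 ± 0.623 and TET2 at 2.20 ± 0.144. TET1 (0.522 ± 0.111 FPKM), NEIL2 (0.516 ± 0.128) and APEX1 (0.110 ± 0.044) lay at the bottom. The place of APEX1 is uncertain, since genes on the other strand overlap 92.2% of its row. The ranges over the 4 libraries did not overlap between UNG and TDG, TDG and SMUG1, SMUG1 and NEIL1, TET2 and TET1, or NEIL2 and APEX1. They overlapped between NEIL1 and TET3, TET3 and MBD4, MBD4 and TET2, and TET1 and NEIL2. Within each library, however, NEIL1 stood above TET3 in FPKM. The values were 6.94 against 4.21 and 5.91 against 3.94 with Bobcat339, and 4.075 against 3.15 and 8.45 against 5.45 in control. The other overlapping neighbours changed order between libraries. The order depends in part on the gene length used: for UNG, TET2, MBD4 and NEIL1 the length behind the FPKM (2107, 9148, 6296 and 4553 bases) is shorter than the length column of the same table (3973, 24504, 23305 and 9101 bases). With the length column UNG would stand at 42.4, below TDG, NEIL1 at 3.17, below TET3, and MBD4 at 0.708, below TET2 at 0.822. For MBD4 that column exceeds the 14142 bases its row spans, so there it cannot be the length of a single transcript. For NEIL1 it takes up 9101 of the 9251 bases spanned. How either length was computed is not stated in the sources used here. The values from the length column therefore show only that levels depend on length.

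**Figure D1:**
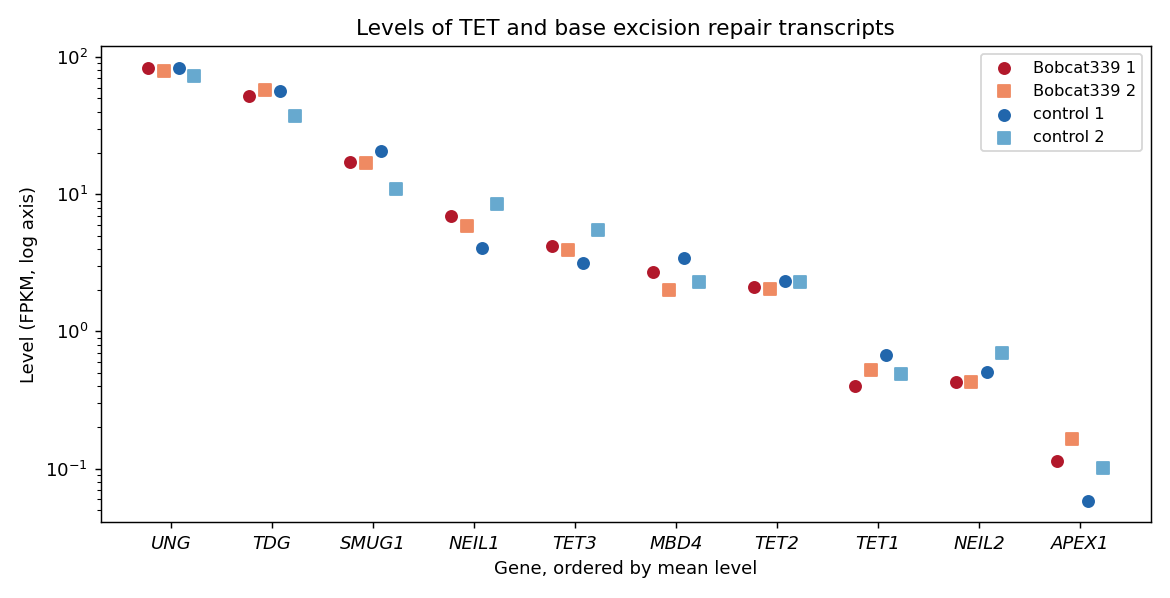
Level in FPKM (log axis) of each of the 10 transcripts in each library, ordered from left to right by the mean over the 4 libraries. UNG averaged 80.0 FPKM and TDG 51.1, against 4.19 for TET3, 2.20 for TET2 and 0.522 for TET1; the 4 points of TDG, SMUG1, NEIL1 and TET3 are spread mainly by the 2 control libraries.

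None of these transcripts passed the comparison of Bobcat339 with control embryos by edgeR's quasi-likelihood test, which weighs the difference against an estimated spread between replicates. That estimate is drawn toward the trend over all rows tested, so an interval given below is not the spread of that transcript alone. Of the 9 transcripts abundant enough to be tested, 0 passed a Benjamini-Hochberg adjusted p of 0.05, as did 0 of the 18481 rows tested (0%). At an unadjusted p under 0.05 there were 0 of the 9, against 4.00% of all rows tested, and DESeq2 and limma-voom also called 0 of the 9, with 0 at an unadjusted p under 0.05. The log2 fold change was above 0 for 4 and below 0 for 5, with a median of −0.10, beside a median of −0.02 over all rows. In these libraries of whole embryos, fewer cells with a transcript and less RNA per cell cannot be told apart.

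TET3 (ENSSSCG00000008292, chromosome 3: 68924990 to 68968883, minus strand) encodes the TET enzyme known from mouse as the maternal one. It had 308 and 266 counts in the Bobcat339 libraries and 226 and 376 in the control libraries, or 21.0 and 19.4 CPM with Bobcat339 against 16.2 and 26.9 CPM in control. Both Bobcat339 libraries lay between the 2 controls, control 1 being the lowest and control 2 the highest of the 4. Between the groups its log2 fold change was −0.10 (SE 0.34; 95% interval −0.82 to 0.63; edgeR adjusted p = 0.999), an interval that runs from 0.568-fold to 1.54-fold. The row covers 43.2% of the span of the RefSeq gene TET3 in Sscrofa11.1, and in the rest of that span the table has 0 other rows.

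TET2 (ENSSSCG00000009157, chromosome 8: 116415272 to 116545514, minus strand) encodes the family member without a CXXC domain, the DNA-binding domain that TET1 carries. It had 283 and 255 counts with Bobcat339 and 308 and 293 in control, or 19.3 and 18.6 CPM against 22.1 and 21.0 CPM. Both Bobcat339 libraries lay below both controls, and the replicates of each group were close, averaging 18.9 ± 0.496 CPM with Bobcat339 and 21.5 ± 0.773 CPM in control (SD, n = 2 each). edgeR put the log2 fold change at −0.19 (SE 0.32; 95% interval −0.86 to 0.49; edgeR adjusted p = 0.999). The replicates of TET2 differed 1.04-fold with Bobcat339 and 1.05-fold in control, less than those of the other 8 except NEIL2 and SMUG1 with Bobcat339.

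TET1 (ENSSSCG00000010241, chromosome 14: 71675671 to 71812694, plus strand), known for its role in embryonic stem and germ cells of the mouse, was the lowest of the 3 TET transcripts. It had 38 and 46 counts with Bobcat339 and 62 and 44 in control, or 2.59 and 3.35 CPM against 4.44 and 3.15 CPM. The groups overlapped, since Bobcat339 2 lay above control 2. Counting alone gives Poisson 95% intervals of 26.9 to 52.2 counts for the lowest library, Bobcat339 1, and 47.5 to 79.5 for the highest, control 1. The log2 fold change was −0.35 (SE 0.45; 95% interval −1.31 to 0.60; edgeR adjusted p = 0.999).

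Per length, TET3 was the largest part of the TET transcripts in each library. In reads TET3 and TET2 were close, at means of 20.9 and 20.2 CPM over the 4 libraries. In control 1 TET2 had the more counts, 308 against 226. The shares below therefore rest on the lengths used, 4980 bases for TET3 and 9148 for TET2, and the TET3 row covers 43.2% of its RefSeq span. Over the 3 genes the FPKM summed to 6.72 and 6.52 in Bobcat339 embryos and to 6.16 and 8.26 in control embryos. TET3 made up 62.7% and 60.4% of that sum with Bobcat339 and 51.2% and 66.0% in control, and TET2 made up 31.4% and 31.5% with Bobcat339 and 38% and 28% in control. TET1 made up 6.0% and 8.1% with Bobcat339 and 10.8% and 6.0% in control. For the share of each of the 3 genes the controls were farther apart than the Bobcat339 libraries, and for TET2 and TET3 both Bobcat339 libraries lay between them. With the longer TET2 length of the table's length column, TET3 would make up 78.0% and 75.3% with Bobcat339 and 67.2% and 80.1% in control. Since that column exceeds the span of the row for MBD4, these shares show only the dependence on length.

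**Figure D2:**
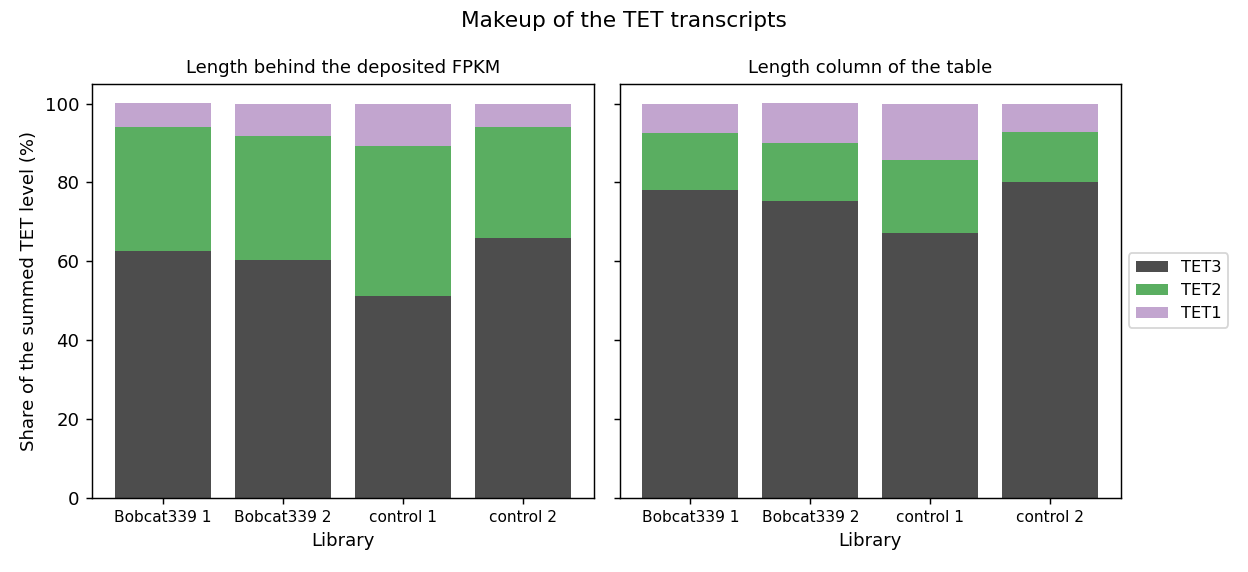
Share (%) of the summed per-length level of TET1, TET2 and TET3 in each library, with the length behind the deposited FPKM at left and the length column of the table at right. For MBD4 the length column exceeds the span of the row, so the right panel shows only the dependence on length. TET3 is the largest part of every bar: 62.7% and 60.4% with Bobcat339 and 51.2% and 66.0% in control at left, and 78.0% and 75.3% against 67.2% and 80.1% at right.

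TDG (ENSSSCG00000000847, chromosome 5: 80437959 to 80492252, minus strand), the glycosylase that follows the TET enzymes in active demethylation, had 2306 and 2351 counts with Bobcat339 and 2441 and 1549 in control. These are 157 and 171 CPM with Bobcat339 against 175 and 111 CPM in control. Control 2 stood apart below the other 3 libraries, and in CPM both Bobcat339 libraries lay between the controls. In FPKM Bobcat339 2 lay above control 1 (57.9 against 56.7). Between the groups its log2 fold change was 0.20 (SE 0.28; 95% interval −0.40 to 0.80; edgeR adjusted p = 0.999). It was 0.57 without control 1 (edgeR adjusted p = 0.107) and −0.06 without control 2. Across 65.1% of its span the TDG row overlaps GLT8D2 on the other strand, which had 487 and 567 counts with Bobcat339 and 319 and 431 in control. The RefSeq gene TDG spans only 80473233 to 80492295 and GLT8D2 ends at 80473288, so nearly all of the overlap lies outside the RefSeq gene. Reads in the overlap cannot be assigned to a strand in these libraries.

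SMUG1 (ENSSSCG00000024221, chromosome 5: 19398250 to 19405871, minus strand), which removes uracil and 5-hydroxymethyluracil, resembled TDG. It had 734 and 668 counts with Bobcat339 and 868 and 446 in control, or 50.0 and 48.7 CPM against 62.2 and 31.9 CPM. The Bobcat339 libraries were within 1.03-fold of each other while the controls differed 1.95-fold. edgeR put the log2 fold change at 0.07 (SE 0.34; 95% interval −0.65 to 0.78; edgeR adjusted p = 0.999). The row covers 20.4% of the span of the RefSeq gene SMUG1.

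MBD4 (ENSSSCG00000033303, chromosome 13: 68814823 to 68828964, minus strand) combines a methyl-CpG binding domain with a glycosylase that removes thymine mispaired with guanine. It had 252 and 172 counts with Bobcat339 and 312 and 200 in control, or 17.2 and 12.5 CPM against 22.4 and 14.3 CPM. In both groups library 1 was the higher, and Bobcat339 1 lay above control 2, so the groups overlapped. The log2 fold change was −0.30 (SE 0.35; 95% interval −1.05 to 0.44; edgeR adjusted p = 0.999), and it was 0.05 without control 1. The row overlaps IFT122 on the other strand over 2.45% of its span, outside the span of the RefSeq gene MBD4.

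UNG (ENSSSCG00000009938, chromosome 14: 41746499 to 41757846, minus strand), the main uracil glycosylase of replicating cells, was the steadiest of the abundant transcripts. It had 2598 and 2270 counts with Bobcat339 and 2514 and 2146 in control, or 177 and 165 CPM against 180 and 154 CPM. In CPM both Bobcat339 libraries lay between the controls, which differed 1.17-fold. In FPKM Bobcat339 1 lay above control 1 (84.0 against 82.9). Between the groups its log2 fold change was 0.04 (SE 0.26), and its 95% interval of −0.52 to 0.59, or 0.70-fold to 1.5-fold, was the narrowest of the 9 (edgeR adjusted p = 0.999).

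NEIL1 (ENSSSCG00000001882, chromosome 7: 58259756 to 58269006, minus strand), a glycosylase for oxidised bases that can also displace TDG from the abasic site, ran opposite to TDG and SMUG1 in the controls. It had 464 and 365 counts with Bobcat339 and 267 and 533 in control, or 31.6 and 26.6 CPM against 19.1 and 38.2 CPM. Control 2 was 1.99-fold above control 1, the widest gap between replicates among the 9, and both Bobcat339 libraries lay inside it. edgeR put the log2 fold change at 0.02 (SE 0.35; 95% interval −0.73 to 0.77; edgeR adjusted p = 0.999). Without control 1 it was −0.39 and without control 2 it was 0.64, neither of which passed. The row overlaps MAN2C1 on the other strand over 15.7% of its span, outside the span of the RefSeq gene NEIL1.

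NEIL2 (ENSSSCG00000028699, chromosome 14: 14945204 to 14966300, plus strand), a relative of NEIL1, had 13 and 12 counts with Bobcat339 and 15 and 20 in control. These are 0.886 and 0.874 CPM against 1.08 and 1.43 CPM, with both Bobcat339 libraries below both controls. Counting alone gives Poisson 95% intervals of 6.2 to 21.0 counts for Bobcat339 2 and 12.2 to 30.9 for control 2, which overlap. The log2 fold change of −0.51 (SE 0.65) had the widest interval of the 9, −1.87 to 0.86 (edgeR adjusted p = 0.999).

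APEX1 (ENSSSCG00000040060, chromosome 7: 78450381 to 78455045, minus strand), the endonuclease that opens abasic sites, had 6 and 8 counts with Bobcat339 and 3 and 5 in control and was too low to be tested. Both Bobcat339 libraries lay above both controls, by a few counts. Its row overlaps 2 genes on the other strand, PIP4P1 over 84.0% and OSGEP over 8.15% of its span, together 92.2%. PIP4P1 had 367 and 348 counts with Bobcat339 and 597 and 390 in control. The sources used here do not say how reads falling in both genes were counted, so the APEX1 counts and its place in the order are uncertain, and the part of the overlap in them was not tested. APEX2, the second endonuclease of this kind, was among the most abundant repair transcripts (108.6 ± 6.82 FPKM over the 4 libraries, SD, n = 4).

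**Figure D3:**
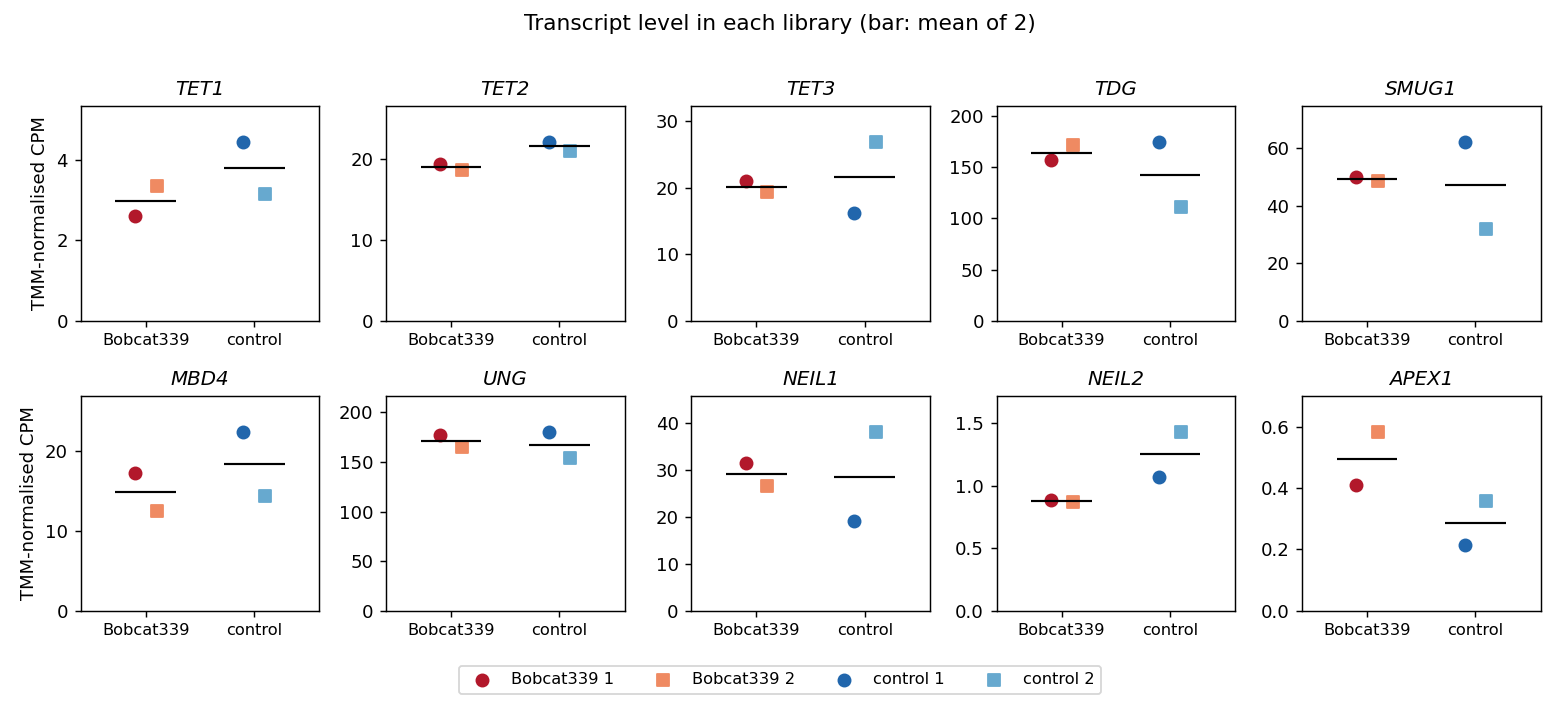
TMM-normalised CPM of each transcript in each library, with both Bobcat339 libraries at left and both controls at right; the bar is the mean of 2 and each axis starts at 0. The Bobcat339 points of TET3, TDG, SMUG1, UNG and NEIL1 lie between the 2 controls, those of TET2 and NEIL2 lie below both controls, and those of APEX1, at 3 to 8 counts, lie above.

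The groups did not overlap at 2 of the 9 tested transcripts, TET2 and NEIL2, both lower with Bobcat339. Among all rows tested 29.3% did not overlap, 16.0% with Bobcat339 below and 13.3% with Bobcat339 above, so a count of 2 in 9 is near the background. At 5 of the 9, TET3, TDG, SMUG1, UNG and NEIL1, both Bobcat339 libraries lay between the controls in TMM-normalised CPM, against 30.7% of all rows. For TDG and UNG this depends on the scaling. In FPKM, scaled to library totals alone, Bobcat339 2 lay above both controls for TDG (57.9 against 56.7 and 37.4). Bobcat339 1 did so for UNG (84.0 against 82.9 and 73.5). In CPM the difference between the 2 controls was larger than that between the 2 Bobcat339 libraries at 9 of the 9, against 67.9% of all rows. TET2 met this narrowly, at 0.07 against 0.05 (log2). In FPKM its controls (2.34 and 2.31) were closer together than its Bobcat339 libraries (2.11 and 2.05). The median size of the difference in CPM was 0.64 (log2) for the controls and 0.11 for the Bobcat339 libraries, beside 0.52 and 0.27 over all rows. At 7 of the 9 the control libraries differed from each other by more than the size of the fitted log2 fold change between the groups, against 71.7% of all rows.

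The controls did not differ in 1 direction. Control 1 was above control 2 by 0.96 (log2) in SMUG1, 0.66 in TDG, 0.64 in MBD4, 0.50 in TET1, 0.23 in UNG and 0.07 in TET2. It was below control 2 in NEIL1 (−1.0), TET3 (−0.73) and NEIL2 (−0.41). A comparison that rests on 1 control library therefore gives TET3 a log2 fold change of −0.42 (without control 1) or 0.35 (without control 2), and SMUG1 0.63 or −0.30, with 0 of the 9 passing edgeR's adjusted threshold without control 1 (2.92% of all rows tested) or without control 2 (2.47%). An unadjusted p under 0.05 was reached by 2 of the 9 without control 1 (TDG and SMUG1), against 13.4% of all rows, and by 1 of the 9 without control 2 (NEIL1), against 16.2%, so both counts are near the background. Whether the difference between the controls lies in the embryos or in the library preparation was not tested.

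**Figure D4:**
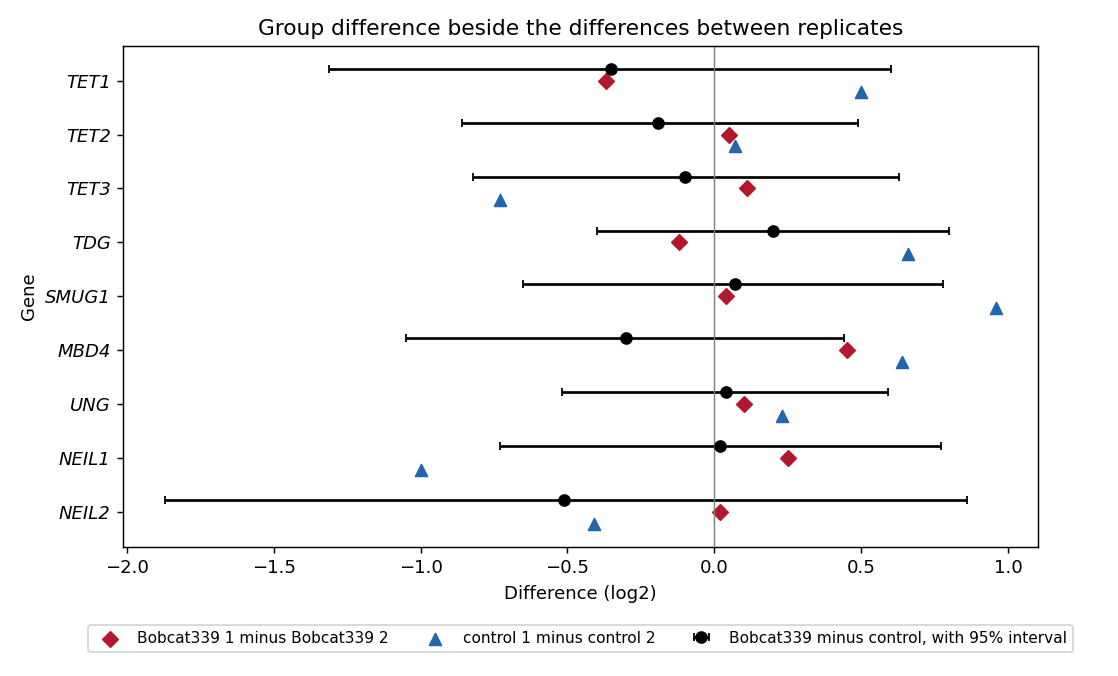
Differences on the log2 scale for the 9 tested transcripts: Bobcat339 minus control with its 95% interval (black), Bobcat339 1 minus Bobcat339 2 (red) and control 1 minus control 2 (blue). Every black interval includes 0, and the blue points run from −1.0 for NEIL1 to 0.96 for SMUG1, outside the black interval of the same gene in SMUG1, MBD4 and NEIL1.

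The rest of the pathway was read from a list of 32 genes, among them other glycosylases and APEX2, gap filling and ligation, strand break sensing, and TET partners and regulators. Of 29 tested genes 0 passed by edgeR in either direction, 10 had a log2 fold change above 0 and 19 below, and the median was −0.15, beside −0.02 over all rows. The most abundant were PCNA, the sliding clamp of replication and repair, UHRF2, which binds 5-hydroxymethylcytosine, and APEX2. PCNA stood at 4305 and 4543 CPM with Bobcat339 and 3470 and 4995 CPM in control (log2 fold change 0.06). UHRF2 stood at 824 and 998 CPM with Bobcat339 and 824 and 1239 CPM in control (log2 fold change −0.18). APEX2 stood at 231 and 258 CPM with Bobcat339 and 274 and 261 CPM in control (log2 fold change −0.13). Among the NEIL glycosylases NEIL3, which is known for acting on single-stranded DNA, was the most abundant per length, at 57.2 FPKM over the 4 libraries, against 6.34 for NEIL1 and 0.516 for NEIL2.

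By group of the list, the other glycosylases and APEX2 had a log2 fold change below 0 at 6 of 6 (median −0.33), and gap filling and ligation at 6 of 11 (from −0.60 to 0.44). Strand break sensing (PARP1, PARP2 and PARG) was below 0 at 3 of 3, and TET partners and regulators at 3 of 7. CXXC5, APOBEC1 and APOBEC2 were too low to be tested. Over all 18481 rows 9781 were below 0. An unadjusted p under 0.05 was reached by 3 of the 29 genes, against 4.00% of all rows; those described here are GADD45G and NTHL1, the second chosen after its values were seen. None passed the adjusted threshold.

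NTHL1, a glycosylase for oxidised pyrimidines, had 48 and 39 counts with Bobcat339 and 74 and 95 in control. Both Bobcat339 libraries lay below both controls, and its log2 fold change was −0.98 (SE 0.42; edgeR adjusted p = 0.999). GADD45G, a stress-induced protein that has been linked to demethylation by repair, had 20 and 51 counts with Bobcat339 and 3 and 15 in control. Its Bobcat339 libraries lay above both controls but the replicates of each group were far apart, and its log2 fold change of 1.96 (SE 0.73; edgeR adjusted p = 0.999) ranged from 1.11 to 3.52 with 1 library left out. Without control 2, and in no other such setting, it passed (edgeR adjusted p = 0.0247).

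**Figure D5:**
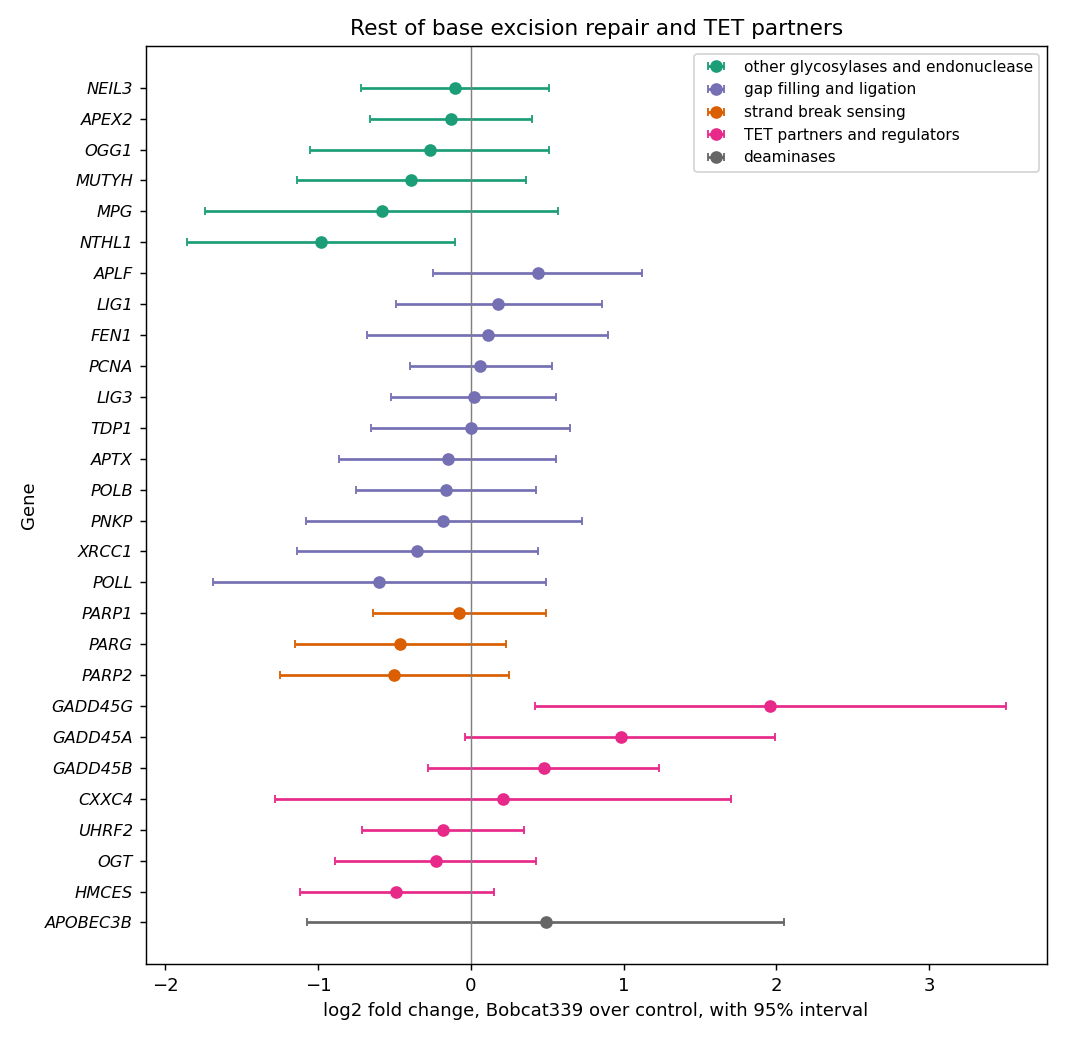
Log2 fold change of Bobcat339 over control with its 95% interval for 28 tested genes of the rest of the pathway, coloured by group. The intervals of GADD45G (above 0) and NTHL1 (below 0) exclude 0 before adjustment, and none of the 28 passed after it.

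Likeness in pattern was measured over the 4 libraries as the root mean square difference of log2 CPM, each gene centred on its own mean, among the 10 transcripts and the pathway list (28 or 29 candidates). The gene most like TET1 was XRCC1 (0.09), a scaffold of single-strand break repair, and the gene most like TET2 was POLB (0.04), the gap-filling polymerase. TET3 was most like TDP1 (0.08), which removes protein adducts from DNA ends; both were lowest in control 1 and highest in control 2. TDG was most like SMUG1 (0.13), both lowest in control 2. With 4 libraries such likeness is a description of these values.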

How the data were processed

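Per the file headers, the authors deposited raw read counts and FPKM values for each library; per the submitters' processing notes the tools included HISAT2 2.0.5, Trimmomatic, DESeq2 1.16.1 and HTSeq, with no roles stated, and the genome was Sscrofa10.2. The coordinates follow Sscrofa11.1: of 14155 symbols compared, 98.83% overlap the RefSeq gene of that name there. The counts sum to 14681221, 13568525, 14390560 and 13852262. FPKM equal counts divided by the library total and a length. Columns belonging to no sample used here number 0. Library titles gave the groups and column names were matched to them.

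Counts were tested with edgeR 4.0.16 in R 4.3.3: filterByExpr (minimum count 10; 18481 rows left, with 99.73% of counts), TMM, glmQLFit and glmQLFTest, with Benjamini-Hochberg adjustment at 0.05 over all rows. CPM are TMM-normalised. Alternatives were DESeq2 1.42.0, limma-voom (limma 3.58.1), DESeq2 size factors, no scaling, other filters, a replicate block, each library left out and limma on log2(FPKM + 0.1). Replicates differed by more than sampling noise (mean chi-square per gene 11.15 between Bobcat339 libraries, 41.43 between controls), which excludes only a repeated deposit of the same reads, not technical repeats; following the labels, each library counts as 1 sample.

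The members and lists were chosen with earlier results of these data known. Named are all 10 members; of the list, the 3 genes with the highest mean FPKM, the 2 with the smallest p (1 of them not reported here) and any that passed; and, for TET1, TET2, TET3 and TDG, the gene most alike in pattern among those with at least 5 CPM.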

Additional observations from a re-analysis of the deposited data

How the results depend on the processing

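The count of members past the threshold stayed at 0 of those tested under every alternative run; NEIL2 and TET1 could not be tested at a filter of at least 5 CPM. The edgeR count over all rows was 0, against 5 with DESeq2, 1 with limma on FPKM and 44 with the replicate number as a block; the deviations of same-numbered libraries correlated at 0.211, over only 2 pairs, so the numbers were not taken as pairing. With 1 library left out, the remaining one of its group being assumed to vary as the other pair did, the count ranged from 0 to 780: without control 1 it was 586, or 11 on the rows tested with all libraries (an alternative added after the data were seen), and without control 2 it was 494, or 780 on those rows. Pathway genes past the threshold ranged from 0 to 3: without control 2 these were GADD45A and GADD45G (both higher with Bobcat339; edgeR adjusted p = 0.0267 and 0.0247) and, on those rows, PARP2 (lower; edgeR adjusted p = 0.0292). In the same settings the log2 fold change changed sign for 6 of 9 members: it ranged from −0.56 to 0.05 for MBD4, −0.39 to 0.64 for NEIL1, −0.30 to 0.63 for SMUG1, −0.06 to 0.57 for TDG, −0.42 to 0.35 for TET3 and −0.04 to 0.16 for UNG. It kept its sign for TET1 (−0.55 to −0.09), TET2 (−0.22 to −0.10) and NEIL2 (−0.70 to −0.26). Under the other 8 alternatives all 70 member values kept direction and side of the threshold. The TET3 to TET2 ratio averaged 1.91 with the deposited FPKM and 5.10 with the length column, which for MBD4 exceeds the span of its row. The lowest counts were those of APEX1 (3 to 8), NEIL2 (12 to 20) and TET1 (38 to 62).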

Other observations

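GADD45A and GADD45B, stress-induced relatives of GADD45G, were chosen after their values were seen. GADD45A had 200 and 720 counts with Bobcat339 and 163 and 305 in control, or 13.6 and 52.4 CPM against 11.7 and 21.8 CPM. GADD45B had 498 and 1032 counts with Bobcat339 and 531 and 564 in control, or 33.9 and 75.2 CPM against 38 and 40.4 CPM. In both genes Bobcat339 2 stood above the other 3 libraries, and Bobcat339 1 was within the range of the controls or below it. The log2 fold changes were 0.98 for GADD45A (95% interval −0.04 to 1.99) and 0.48 for GADD45B (−0.28 to 1.23), and neither passed by edgeR (adjusted p = 0.999 each). With 1 library left out they ranged from −0.26 to 1.65 and from −0.16 to 0.94; GADD45A passed without control 2 (edgeR adjusted p = 0.0267).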
